A study of Mus musculus with 8 samples.

Results

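Open chromatin at day 5 and at day 10 of OSKM reprogramming was compared site by site, to ask which sites were listed as open at day 5 only (closed), on both days (kept) or at day 10 only (opened). A site counted as kept when a day 5 peak and a day 10 peak shared at least 1 bp. The comparison gave 44247 sites, of which 9046 were closed, 27073 kept and 8128 opened. These sites came from the 36219 day 5 peaks and 35226 day 10 peaks, out of 176445 peaks in the 4 lists of the series, the others being those of mouse embryonic fibroblasts (MEFs) and embryonic stem cells (ESCs). The assay was ATAC-seq, which uses a transposase to cut and tag DNA where it is not covered by nucleosomes. Both OSKM groups were MEFs of the C57BL/6J-OG2 strain, which carries a GFP reporter driven by Oct4 sequence, infected with retroviruses for OCT4, SOX2, KLF4 and c-MYC (OSKM) and with a FLAG control vector, then kept in ESC medium with 50 µg/ml vitamin C and collected at day 5 or day 10. Each group had 2 libraries and 1 deposited peak list, so no spread between replicates could be computed and all intervals are for counting error alone. The cells were not sorted, and a site open in fewer cells and a site less open in each cell cannot be told apart. Read depth per library was unknown.

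OCT4, SOX2 and KLF4 bind DNA directly, and together with c-MYC they turn fibroblasts into pluripotent cells over a period of days to weeks. In this process, fibroblast enhancers, many of which carry the recognition sequence of AP-1 (the FOS and JUN family of activators), lose accessibility, and enhancers of pluripotency genes gain it. Many sites also open for a time without being open in either the starting or the final cell type. The interval from day 5 to day 10 lies before stable pluripotency is reached in most cells of such a culture.

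The sequences of 8 sites are shown, since AP-1, octamer (bound by OCT4), SOX and KLF sequences were the features on which closed and opened sites were compared. Each is the 200 bp around the midpoint of the highest-scoring closed or opened site with a match outside exons and with little repeat sequence, read from the forward strand of GRCm38 (mm10), 5′ to 3′. Capitals mark only matches, on either strand, to the motif named before the window: TGAGTCA (AP-1), ATGCAAAT (octamer), CCATTGT (SOX) or GGGNGTGG (KLF). Matches to other motifs stay in lower case, as does the octamer in the closed SOX window.
Closed, AP-1, nearest gene Pde4d, chr13:108547898-108548097: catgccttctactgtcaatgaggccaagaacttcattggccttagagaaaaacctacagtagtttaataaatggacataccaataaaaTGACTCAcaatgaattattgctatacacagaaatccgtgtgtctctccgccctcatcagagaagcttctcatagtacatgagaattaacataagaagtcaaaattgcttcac
Opened, AP-1, nearest gene Map3k7, chr4:32074626-32074825: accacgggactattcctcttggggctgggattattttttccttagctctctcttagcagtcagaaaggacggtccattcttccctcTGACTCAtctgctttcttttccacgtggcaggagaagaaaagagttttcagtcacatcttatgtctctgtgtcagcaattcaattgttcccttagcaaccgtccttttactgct
Closed, octamer, nearest gene Pabpc4l, chr3:46847500-46847699: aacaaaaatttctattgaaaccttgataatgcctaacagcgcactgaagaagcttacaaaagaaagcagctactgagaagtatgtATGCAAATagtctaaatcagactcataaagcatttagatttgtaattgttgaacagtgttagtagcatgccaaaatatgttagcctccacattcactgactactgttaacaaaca
Opened, octamer, nearest gene Slc7a11, chr3:50178825-50179024: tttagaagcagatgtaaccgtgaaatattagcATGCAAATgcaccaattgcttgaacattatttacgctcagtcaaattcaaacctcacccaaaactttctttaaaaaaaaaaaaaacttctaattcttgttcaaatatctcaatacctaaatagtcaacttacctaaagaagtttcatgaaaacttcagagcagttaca
Closed, SOX, nearest gene Cenpq, chr17:40923860-40924059: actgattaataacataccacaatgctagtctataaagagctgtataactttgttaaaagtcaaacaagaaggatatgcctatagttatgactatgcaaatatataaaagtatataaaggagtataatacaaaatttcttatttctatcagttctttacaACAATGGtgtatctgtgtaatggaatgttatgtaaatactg
Opened, SOX, nearest gene Calml3, chr13:3730464-3730663: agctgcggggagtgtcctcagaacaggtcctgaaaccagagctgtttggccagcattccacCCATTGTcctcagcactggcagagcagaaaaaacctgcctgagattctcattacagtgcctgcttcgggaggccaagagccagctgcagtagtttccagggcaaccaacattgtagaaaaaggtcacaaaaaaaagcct
Closed, KLF, nearest gene Ppp1r9a, chr6:4891533-4891732: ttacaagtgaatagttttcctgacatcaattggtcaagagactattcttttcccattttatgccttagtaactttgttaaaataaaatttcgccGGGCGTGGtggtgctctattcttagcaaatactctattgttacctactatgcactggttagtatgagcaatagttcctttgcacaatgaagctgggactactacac
Opened, KLF, nearest gene Mtss1, chr15:59197817-59198016: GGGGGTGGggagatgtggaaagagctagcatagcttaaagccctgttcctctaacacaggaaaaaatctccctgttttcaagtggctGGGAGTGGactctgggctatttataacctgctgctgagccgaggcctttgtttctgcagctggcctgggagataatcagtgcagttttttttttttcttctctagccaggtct
The closed AP-1 window lay in an intron of Pde4d, which encodes a cAMP phosphodiesterase, at rank 1026 of the day 5 list, and had a GC content of 37.5%. The opened AP-1 window lay outside genes, 82253 bp from the nearest start site of Map3k7, which encodes the kinase TAK1, at rank 8447 of the day 10 list, and had a GC content of 45%. In all 4 pairs the closed site ranked higher in its own list than the opened site did, and in 3 of the 4 pairs it had the lower GC content. The exception was the octamer pair, with 34% in the closed window and 30.5% in the opened window, which lay in an intron of Slc7a11, the cystine transporter gene. Only the opened windows held a MEF or ESC peak, 2 of them a MEF peak and 1 an ESC peak.

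Most day 5 peaks were still listed at day 10, at 75.02% (95% Wilson interval 74.6% to 75.5%). Closed peaks made up 24.98% of the day 5 list (24.5% to 25.4%) and opened peaks 23.1% of the day 10 list (22.6% to 23.5%). Nearly all kept sites, 26949 of 27073, joined a single peak of each day. Closed and opened sites were narrower than kept sites, with median widths of 392 bp, 418 bp and 887 bp, and covered 4.03 Mb and 3.96 Mb against 26.8 Mb. Among kept sites, the day 10 peak was wider than the day 5 peak by a median factor of 1.12. Near misses were rare. The nearest peak of the other day lay within 400 bp for 1.15% of closed and 1.17% of opened sites, and its median distance was 30.6 kb and 15.4 kb.

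**Figure D1:**
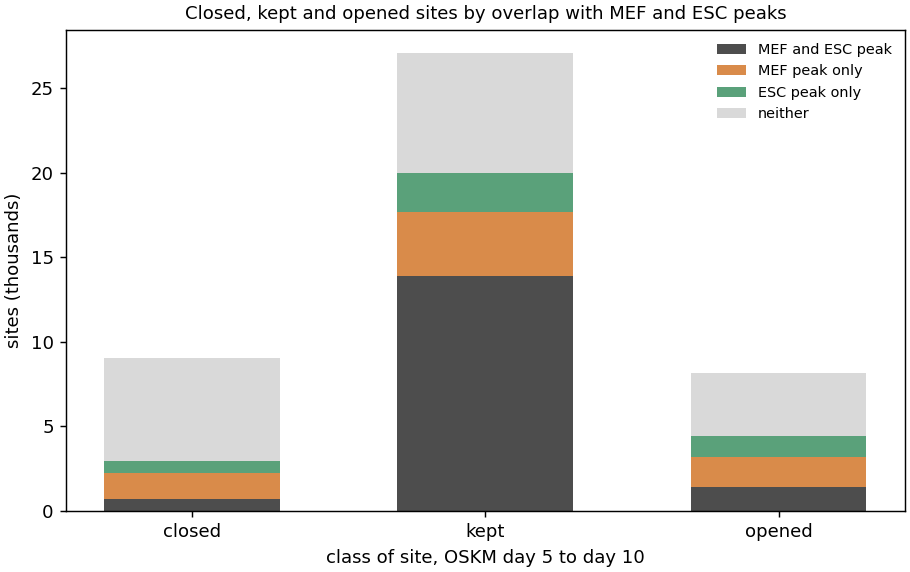
Number of sites, in units of 1000, in each class, with the bars divided by whether the site overlapped a peak of the MEF list, of the ESC list, of both or of neither. Of the closed sites, 67.6% had neither, compared with 45.4% of opened and 26.2% of kept sites.

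Both turnover classes were mainly made of low-scoring peaks, but closure reached further up the list than opening. The score is the authors' measure of how far a peak stands out from the background. In the lowest-scoring 10% of day 5 sites 54.2% were closed, and in the highest-scoring 10% of them 1.93% (70 of 3622). Opened sites made up 60.6% of the lowest-scoring 10% at day 10 and 0.0568% of the highest-scoring 10% (2 of 3523). In the higher-scoring 50% of each list, 1960 closed sites stood against 905 opened sites. The highest-scoring 25% of the own list held 4.78% of closed sites (4.36% to 5.23%) and 0.714% of opened sites (0.552% to 0.921%). The median fold enrichment at the site's own day was 3.41 for closed and 3.00 for opened sites, and for kept sites it was 3.85 at day 5 and 3.51 at day 10. Peak scores depend on depth, which was unknown, and its part in these differences was not tested.

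Base composition separated the classes. The median GC content of the 200 bp window was 39.5% in closed, 51.5% in kept and 48.5% in opened sites, and in windows 1 kb to each side it was 41.25%, 44.5% and 46%. The share of day 5 sites that closed was 56.5% below 35% GC and 2.65% at 65% GC or more, and was lower in each successive bin. Opened sites were the largest share of day 10 sites at 50% to 55% GC, at 34.5%, and were a smaller share at either end, at 15.6% below 35% GC and 6.92% at 65% or more. Kept sites moved the same way with GC. Their median score percentile changed by -18.6 points from day 5 to day 10 below 35% GC and by 8.14 points at 65% or more. Over whole lists, the median GC content was 47.5% for day 5, 50.5% for day 10, 48.5% for MEFs and 50.5% for ESCs. With 1 list per group and no read counts, a difference in base composition between the libraries of day 5 and day 10 and a change in the cells cannot be told apart, so closed and opened mean listed on 1 day only. The main comparisons are also given at 40% to 50% GC, a range chosen after these values were seen.

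**Figure D2:**
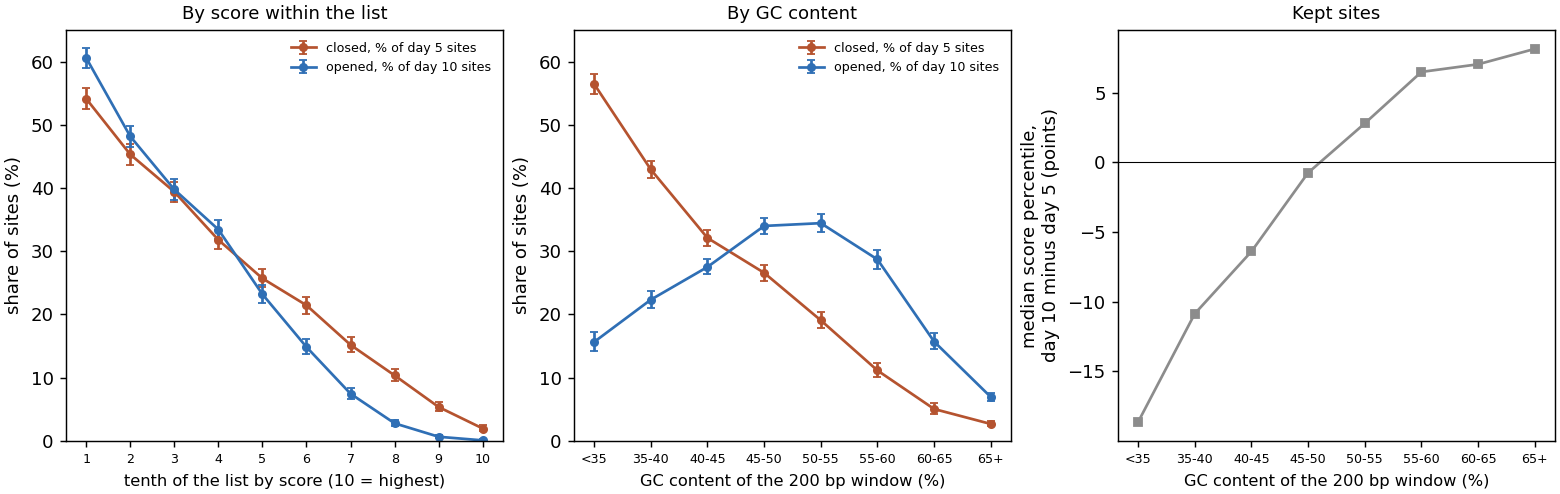
Left and middle, share of day 5 sites that closed and of day 10 sites that opened, in % with 95% Wilson intervals, by score within the list (in steps of 10%) and by GC content of the site. Right, median change of the score percentile of kept sites from day 5 to day 10, in points, which runs from -18.6 below 35% GC to 8.14 at 65% or more.

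Closed sites lay further from start sites than opened sites did. Of opened sites, 39.1% (38.1% to 40.2%) lay within 5 kb of an annotated transcription start site, compared with 23.4% (22.5% to 24.3%) of closed and 58.2% of kept sites. The difference between opened and closed sites was 15.7 percentage points (95% Newcombe interval 14.4 to 17.1), and opened sites had the higher share on all 20 chromosomes with enough sites to compare. Within 1 kb the shares were 20.9% and 8.64%. At the other end, 36.3% of closed sites lay over 100 kb from the nearest start site of a protein-coding gene, against 12.3% of opened and 13.9% of kept sites. By midpoint, 49.3% of closed sites lay outside genes, 44.5% in introns and 6.16% in exons, whereas 35.6% of opened sites lay outside genes, 51.5% in introns and 12.9% in exons. Sites that were at least 50% repeat-masked were 8.13% of closed, 3.89% of opened and 2.36% of kept sites. At 40% to 50% GC the difference in the share within 5 kb was 7.38 points (5.23 to 9.51).

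The MEF and ESC lists showed where else each site was open. A MEF peak overlapped 24.5% of closed and 38.8% of opened sites, a difference of 14.3 points (12.9 to 15.7). An ESC peak overlapped 15.4% of closed and 32.9% of opened sites, a difference of 17.6 points (16.3 to 18.8). Opened sites therefore had the higher share with a peak in each cell type, also in that of origin. Of the 8128 opened sites, 1765 had a MEF peak but no ESC peak, 1392 had both and 1284 an ESC peak only. The first 2 groups were open in MEFs, not listed at day 5 and listed again at day 10. Among the 9046 closed sites, 6116 had neither a MEF nor an ESC peak, 1541 a MEF peak only, 711 an ESC peak only and 678 both. The difference in ESC peaks was 10.1 points (7.99 to 12.1) at 40% to 50% GC and 0.392 points, with an interval that held 0 (-5.76 to 6.38), at 55% to 60% GC. The difference in MEF peaks there was 1.10 points (-1.13 to 3.32), and at 55% to 60% GC it was turned, with 51.8% of opened and 63.0% of closed sites. Closed sites with neither peak were the most AT-rich, with a median GC content of 37.5%, and lay at a median of 70341.5 bp from a protein-coding start site.

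Kept sites with a peak in both MEFs and ESCs gained rank within their lists, by a median of 6.29 points, and 81.1% of them lay within 1 kb of a start site. Kept sites with neither peak lost rank, by a median of -10.7 points, and 6.55% of them lay within 1 kb of a start site. Kept sites with an ESC peak only changed by -3.04 points and those with a MEF peak only by 0.00329 points. The median GC content of these groups was 63.5%, 40.5%, 44.5% and 47.5%, in the same order.

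AP-1 sequences marked the closed sites. A match lay in 11.0% of closed windows (10.3% to 11.6%), in 5.88% of kept and in 5.65% of opened windows, over flanks at 3.19%, 3.12% and 3.41%. The opened minus closed difference was -5.31 points (-6.12 to -4.49), with the lower share in opened sites on 20 of 20 chromosomes. In all 6 bins of GC content between 30% and 60% closed sites had the higher share, and at 40% to 50% GC the difference was -6.69 points (-8.14 to -5.26). RUNX sequences (TGTGGTT, bound by the RUNX factors of mesenchymal and blood cells) gave a difference of the same sign, with 6.30% of closed and 4.20% of opened windows and -2.11 points between them (-2.77 to -1.44). Within the bins of GC content the RUNX difference kept its sign, but its interval held 0 in some of them. It was -2.22 points (-3.96 to -0.588) at 45% to 50% GC and -1.10 points (-2.77 to 0.604) at 40% to 45% GC. TEAD sequences (GGAATG), read by the transcription factors of the Hippo pathway, lay in 12.8% of closed and 12.7% of opened windows, a difference of -0.0921 points (-1.09 to 0.909), over flanks at 10.5% in both classes.

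The sequences of the reprogramming factors did not move as a group. SOX matches were more frequent in closed sites, at 6.89% against 4.01% in opened sites, a difference of -2.88 points (-3.55 to -2.20) found on 20 of 20 chromosomes, over flanks at 3.18% and 2.72%. Octamer matches lay in 2.97% of closed and 3.13% of opened windows, with a difference of 0.15 points (-0.363 to 0.671), and flanks at 1.43% and 1.15%. Within bins of GC content, however, the octamer share was higher in opened sites in each of the 6 bins from 30% to 60%, with an interval above 0 in 4 of them, and at 40% to 50% GC the difference was 1.78 points (0.972 to 2.60). With both lists cut to their higher-scoring 50% it was past the threshold the other way, at -1.34 points (-1.99 to -0.688). In lists cut in this way, a site kept in the full lists counted as closed or opened where its peak of the other day was cut. KLF matches were the reverse case. Over all sites they were more frequent in opened windows, at 11.1% against 7.69% and a difference of 3.39 points (2.52 to 4.27). At 40% to 50% GC, however, the difference turned to -2.65 points (-4.11 to -1.21). Outside that range the KLF interval held 0 in every bin from 30% to 60%, and at 50% to 55% GC the difference was 2.51 points (-0.475 to 5.27). The E-box CACGTG, a sequence that c-MYC binds, lay in 1.53% of closed and 3.52% of opened windows, a difference of 1.99 points (1.53 to 2.48) with the higher share in opened sites on 20 of 20 chromosomes, over flanks at 1.90% and 3.12%, and it was not compared within bins of GC content. Sequences with many G and C bases followed the same order as GC content, with GGGGCGGGG (SP) in 0.763% of closed, 2.55% of opened and 5.25% of kept windows and CCGGAAG (ETS) in 0.575%, 1.80% and 4.79%. TCAAGGTCA, the sequence of the pluripotency factor ESRRB, was below its flanks in all 3 classes taken whole, with 0.321% in closed, 0.229% in kept and 0.381% in opened windows. Divided by the MEF and ESC lists, it was not below its flanks everywhere. It lay in 1.13% (0.571% to 2.20%) of closed windows with an ESC peak only, over flanks at 0.633% (0.333% to 1.20%). In closed windows with neither peak it lay in 0.229%, over flanks at 0.376%.

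**Figure D3:**
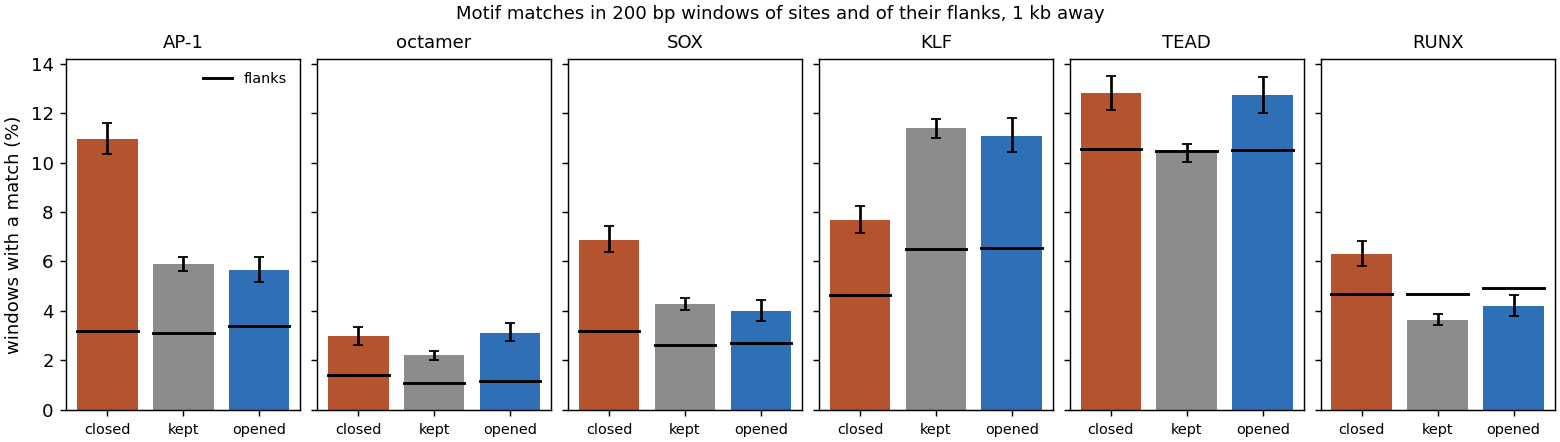
Share of 200 bp windows with a match (%) in closed, kept and opened sites, with 95% Wilson intervals as error bars and the share in windows 1 kb to each side as black lines. AP-1 stood at 11.0% in closed sites and below 6% in both other classes.

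Divided by the MEF and ESC lists, the AP-1 difference was widest at sites open in MEFs and not in ESCs. There, 23.6% (21.6% to 25.8%) of closed, 17.6% (16.4% to 18.9%) of kept and 10.3% (8.98% to 11.8%) of opened windows held a match, with flanks at 3.54%, 3.86% and 3.46%. In the whole MEF list the share was 17.1%. The opened minus closed difference of -13.3 points (-15.9 to -10.8) was -15.4 points (-19.5 to -11.3) at 40% to 50% GC. Sites with neither peak also had the higher AP-1 share when closed, at 8.86% against 4.07%. Sites with a peak in both cell types had 5.01% of closed and 5.82% of opened windows with a match, a difference of 0.804 points (-1.41 to 2.76). RUNX matches at sites with a MEF peak only lay in 8.96% of closed and 4.19% of opened windows, a difference of -4.76 points (-6.51 to -3.08). TEAD matches at the same sites lay in 17.5% of closed and 14.2% of opened windows, over flanks at 10.5% and 10.1%. The TEAD difference was -3.29 points (-5.80 to -0.803). At 40% to 50% GC it was -2.79 points, and its interval spanned both signs (-6.93 to 1.37). With an ESC peak only the TEAD difference was 2.19 points (-1.01 to 5.20). With both peaks it was 0.266 points (-2.85 to 3.15) and with neither -0.218 points (-1.51 to 1.11).

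SOX matches differed most at sites open in ESCs and not in MEFs. They lay in 10.8% (8.75% to 13.3%) of closed and 11.0% (9.75% to 12.3%) of kept windows of that kind, and in 5.14% (4.06% to 6.49%) of opened windows, with flanks between 2.38% and 2.81%. The opened minus closed difference was -5.69 points (-8.41 to -3.21), and -7.89 points (-12.2 to -3.98) at 40% to 50% GC. Octamer matches at the same sites lay in 2.39% of closed, 4.24% of kept and 4.36% of opened windows, a difference of 1.97 points between opened and closed (0.253 to 3.51), which at 40% to 50% GC was 1.47 points with an interval that held 0 (-1.22 to 3.81).

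**Figure D4:**
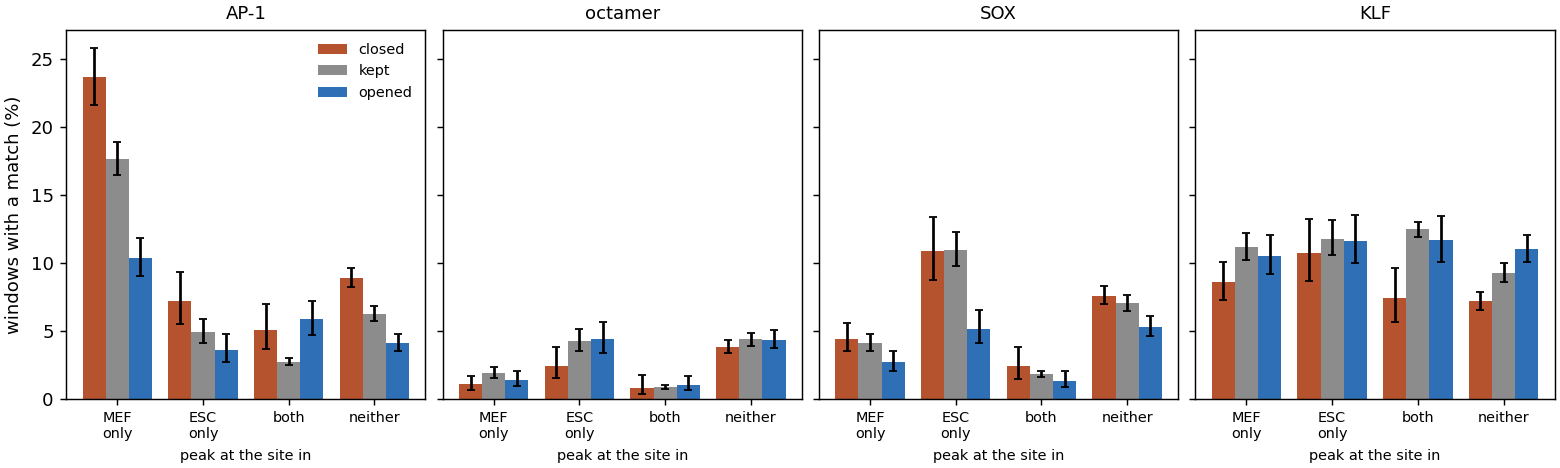
Share of windows with an AP-1, octamer, SOX or KLF match (%) in closed, kept and opened sites, divided by whether the site had a peak in MEFs only, in ESCs only, in both or in neither, with 95% Wilson intervals as error bars. The highest bar is AP-1 in closed sites with a MEF peak only, at 23.6%.

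Each site was assigned to the protein-coding gene with the nearest start site. By this rule 4575 of 21951 genes (20.8%) were nearest to at least 1 closed site, 5194 (23.7%) to at least 1 opened site and 13232 (60.3%) to at least 1 kept site. Closed sites were the more clustered. Flrt2, a leucine-rich repeat adhesion receptor gene, was nearest to 26 closed, 14 kept and 2 opened sites, all 26 closed ones outside genes. Cdh8, a cadherin gene, had 19 closed and 1 opened site, and Adgrl3, which encodes a latrophilin, had 18 closed and 1 opened site. Pcdh20, a protocadherin gene, had 18 closed sites, 1 kept site and 0 opened sites over a span of 3088 kb. Ptprd (a receptor tyrosine phosphatase), Naaladl2, Cdh2 (N-cadherin) and Dlg2 (a synaptic scaffold) had 17 closed sites each and Pcdh17, another protocadherin gene, 16. All of these genes had a peak near a start site on both days. Their closed sites were AT-rich, with median GC contents of 35% to 38% per gene, and spread over 1698 kb to 3449.6 kb. Few of them had a MEF peak, from 0 at Cdh8 to 5 at Dlg2.

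Opened sites were spread over more genes, with at most 11 at 1 gene. Nav2, which encodes a cytoskeleton-associated navigator protein, had 11 opened, 7 kept and 2 closed sites, and 6 of its opened sites had an ESC peak. Egln3 (a prolyl hydroxylase that acts on hypoxia-inducible factors), Hdac4 (a class IIa histone deacetylase), Zfp608, Zbtb7c and Igf1r (the receptor of insulin-like growth factor 1) had 10 opened sites each. Maml3, a co-activator of Notch, and Sh3bp4 had 9, and Tenm4 and the homeobox gene Meis1 had 8. Hdac4, Zbtb7c, Maml3 and Sh3bp4 had 0 closed sites, whereas Tenm4 had 10. The opened sites of these genes had median GC contents of 42.5% to 55.5% and spread over 259.7 kb to 1447 kb, and at Nav2, Zbtb7c and Igf1r 9 or more of them lay in introns. A nearest gene is a position only and does not show that a site acts on it, and genes in gene-poor regions are nearest to more sites by construction.

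**Figure D5:**
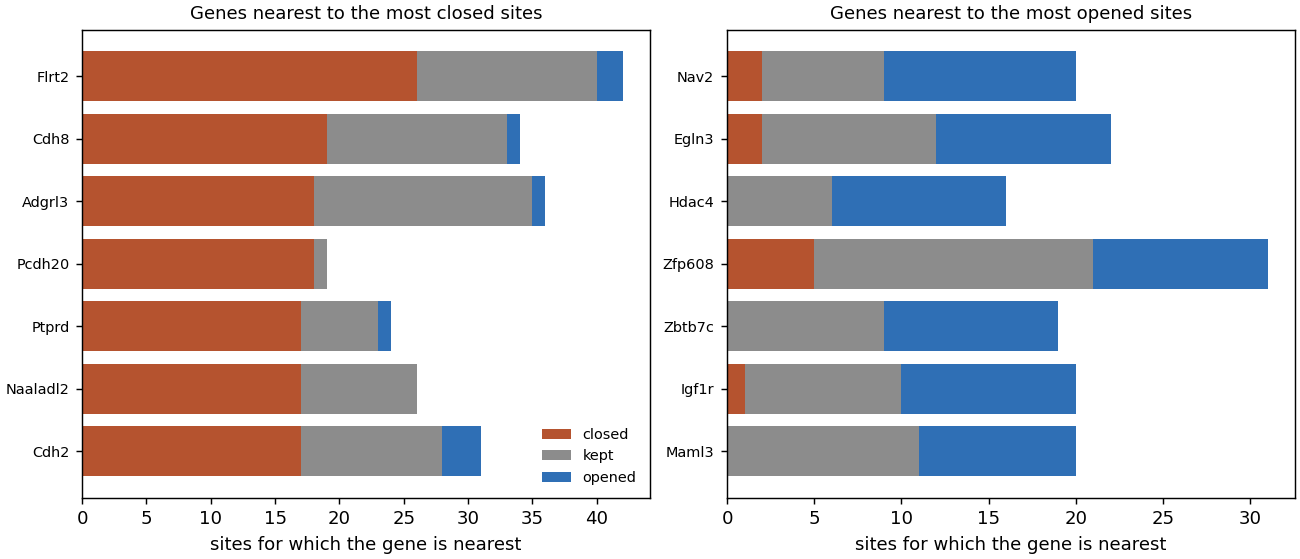
Number of closed, kept and opened sites for which a gene was nearest, for 7 of the genes with the most closed sites (left) and 7 of those with the most opened sites (right). Flrt2 leads on the left with 26 closed sites and Nav2 on the right with 11 opened sites.

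Of 30 pluripotency genes, 8 (26.7%) were nearest to a closed site and 12 (40%) to an opened site, against 20.8% and 23.7% of all protein-coding genes. The list had 16 closed, 55 kept and 25 opened sites, so that 22.5% (14.4% to 33.5%) of its day 5 sites closed and 31.25% (22.2% to 42.1%) of its day 10 sites opened, with 25.045% and 23.1% over all genes inside both intervals. Mycn and Trim71, which encodes a stem cell RNA-binding protein, had 3 opened sites each and 0 closed sites, and Sall4, Sall1, Tet2, L1td1 and Klf5 had 2 opened sites each. Closed sites stood at Dppa4, Nr5a2 and Tbx3, with 3 each. Nanog had 2 kept sites and neither a closed nor an opened one, and Esrrb, Dppa5a, Dppa2, Lin28a, Tcl1, Nr0b1 and Dnmt3l were nearest to 0 sites of any class.

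Of 25 epithelial genes, 9 (36%) had an opened site and 3 (12%) a closed site, against 23.7% and 20.8% of all protein-coding genes. Closed sites were 4, kept 28 and opened 15, giving 12.5% (4.97% to 28.1%) of day 5 sites closed and 34.9% (22.4% to 49.8%) of day 10 sites opened, with the 25.045% and 23.1% over all genes inside both intervals. St14, which encodes the protease matriptase, had 3 opened sites. Cldn4 (a claudin of tight junctions), Krt8 (a keratin of simple epithelia), Grhl3 (a grainyhead factor) and Jup (plakoglobin) had 2 each. Perp, a desmosomal gene, had 2 closed sites and 0 opened ones. Cdh1 and Grhl2 had 1 closed and 1 opened site each.

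Of the 32 fibroblast genes, 21 (65.6%) had a closed site and 18 (56.25%) an opened site, both above the 20.8% and 23.7% of all protein-coding genes. They had 73 closed, 129 kept and 32 opened sites, so that 36.1% (29.8% to 43.0%) of their day 5 sites closed, against 25.045% over all genes, and 19.9% (14.4% to 26.7%) of their day 10 sites opened, against 23.1%. Cdh2 and Cdh11, both mesenchymal cadherins, held 32 of the closed sites, and without them 28.3% of the day 5 sites were closed. Other members had few closed sites, with 7 at Zeb2 (a repressor of epithelial genes), which also had 7 opened sites, 4 at Tgfb2 and at Tbx18, and 3 at Col1a2, at Tgfbr2 and at Dcn. Fn1, Twist2 and Snai2 had kept sites only. The median GC content of the list's closed sites was 38.5% and of its opened sites 43.75%.

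The 18 genes of AP-1, TEAD and RUNX factors had 11 closed, 65 kept and 18 opened sites, so that 14.5% (8.28% to 24.1%) of their day 5 sites closed and 21.7% (14.2% to 31.7%) of their day 10 sites opened, against 25.045% and 23.1% over all genes. Opened sites were led by Tead1, a TEAD factor, with 6, and closed sites numbered at most 2 a gene. Fosb, Fosl1, Junb, Jund, Batf, Tead2, Tead3, Wwtr1 and Runx3 had kept sites only, and Fos and Jun had 2 opened sites each and 0 closed ones.

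Among 25 neural genes, 11 had a closed and 10 an opened site, with 33 closed, 69 kept and 18 opened sites. The genes with a closed and with an opened site were 44% and 40% of the list, against 20.8% and 23.7% of all protein-coding genes, while the list's 32.4% of day 5 sites closed (24.1% to 41.9%) and 20.7% of day 10 sites opened (13.5% to 30.4%) had intervals that held the 25.045% and 23.1% over all genes. Without the 2 neural members with the most closed sites, 20.4% of the day 5 sites of the list were closed. Ncam1, a neural adhesion gene, had 4 opened sites and Sox1, a factor of early neural cells, 3. Without Ncam1 and Sox1, 14.9% of the day 10 sites of the list were opened. The 17 germ layer and trophoblast genes had 8 closed, 35 kept and 12 opened sites (18.6% of day 5 sites closed and 25.5% of day 10 sites opened), led by Tfap2c with 4 opened sites, Tfap2a with 3 and Foxa2 with 4 closed sites. The 19 genes of H3K27 enzymes and of partners of JMJD3, the demethylase that the series studied, had 6 closed, 51 kept and 14 opened sites (10.5% of day 5 sites closed, 4.91% to 21.1%, and 21.5% of day 10 sites opened). Jarid2 and Chd7 had 4 opened sites each, Kdm7a 3, and Kdm6b, which encodes JMJD3, 1. The 20 housekeeping genes had 2 closed, 33 kept and 5 opened sites, the lowest shares of all lists, at 5.71% of day 5 sites and 13.2% of day 10 sites.

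Start sites were the steadiest part of the map. With a peak within 1 kb of any annotated start site as the measure, 12249 protein-coding genes had one on both days and 8488 on neither. For 909 genes (4.14%) such a peak was listed at day 10 alone, and for 305 genes (1.39%) at day 5 alone. Of the 909 genes, 735 had a start site peak in MEFs (80.9%) and 598 in ESCs (65.8%), and 95 in neither. Of the 305 genes, 235 (77.0%) had one in MEFs and 220 (72.1%) in ESCs. Most genes that differed between the days therefore had a MEF peak near a start site, as had 98.9% of the genes with a peak on both days. For a gene with several start sites, the MEF peak need not lie at the start site that differed.

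By name, the pluripotency genes with a start site peak at day 10 only were Sall4, Nr5a2 (an orphan nuclear receptor), Gdf3 and Trim71, 4 of 30 genes and thus 13.3% against 4.14% of all genes, and 0 had one at day 5 only. Epcam (an epithelial adhesion gene), Cldn4 and Tjp3 (both tight junction genes) were the epithelial genes with a day 10 peak only, and Cdh1, which encodes E-cadherin, had one at day 5 only. Neural genes with a day 10 peak only included Pax3, Sox1 and Olig2. Tfap2c, Prrx2 and Ezh1 were also in the day 10 group, and Sox17, an endoderm factor, was the other listed gene with a day 5 peak only. All 20 housekeeping genes had a start site peak on both days, as had 28 of the 32 fibroblast genes. Except for Sox1, Gdf3, Cdh1 and Sox17, each of the genes named here had a MEF peak near a start site.

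The strongest closed sites lay in gene-poor, AT-rich sequence. The first was at chr3:10934133-10934738 (mm10), outside genes and 494334 bp from the nearest coding start site, that of Snx16, with a fold enrichment of 7.45 at rank 347 of the day 5 list. It was followed by sites in an intron of Epha7 (an ephrin receptor, chr4:28920822-28921454, rank 462), outside genes near Pla2g4a (chr1:149044454-149045045, rank 691) and within Pde4d. The 10 highest-scoring closed sites had window GC contents of 25.5% to 39.5% and no ESC peak, and only the site in an intron of Cep85l had a MEF peak. AP-1 matches lay in 3 of them, at Epha7, Pde4d and Pcdh7. The nearest day 10 peak was at least 6764 bp away from each.

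Opened sites began lower in their list. The first, at chr8:8659299-8659446 in an exon of Efnb2 (an ephrin ligand), had rank 3200 of the day 10 list, held an AP-1 match and a MEF peak, and was 148 bp wide with a day 5 peak 1437 bp away. The second, 1862 bp from Gnai3, also had a day 5 peak near it, at 1258 bp. Further from any day 5 peak were sites near Moxd1 (rank 3995, fold 5.95), in an intron of Sptb (rank 4400, fold 5.15, with a MEF and an ESC peak) and near Il12a, which encodes a subunit of interleukin-12 (rank 4401, fold 5.78, with a MEF peak). A start site opened at Prr14l (chr5:32853695-32854456, rank 4439, fold 4.17), with a GC content of 70%, and others at Pex11a, a peroxisome gene, Hsd17b10, a mitochondrial dehydrogenase gene, and Celf5. The strongest closed start site of a protein-coding gene was that of Scn9a, a sodium channel gene (chr2:66634578-66635226, rank 2453 at day 5, fold 5.89), in an exon and with both a MEF and an ESC peak.

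Some kept sites changed place within the lists almost as far as a closed or opened site would. A site in an exon near Ankrd35 (chr3:96663517-96664099) moved from rank 35166 to rank 1967 and from a fold enrichment of 2.73 to 4.93. Sites in an intron of Glg1, at the start of Trpv2, near Abca1 (a cholesterol transporter) and in an intron of Cul3 (a ubiquitin ligase scaffold) followed, each up by at least 78.6 points of score percentile. In the other direction, a site near Gbe1 went from rank 2074 to rank 34444 and from a fold enrichment of 6.79 to 2.71, and a site near Pex5 from rank 81 to rank 31080 and from 7.26 to 2.71. Sites in introns of Dnajc13 and Klf12 were also among the 5 largest falls. Window GC contents were 38% to 60% in the rises and 27.5% to 47.5% in the falls.

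The genes of the 4 introduced factors all carried kept sites, and reads of the genes and of retroviral copies of their coding sequence cannot be told apart there. The strongest site at Klf4 lay wholly in exons and ranked 40 at day 5 and 17 at day 10, and that at Sox2, also wholly in exons, ranked 55 and 170. The site at Myc (52.4% in exons) moved from rank 1786 to 737, and that at Pou5f1 (37.0% in exons) from 15829 to 27668.

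The ChIP-qPCR amplicons of the study were placed on the genome to tie its target genes to these classes. All 21 primer pairs matched at 1 place. Of the amplicons, 7 lay in kept sites, 3 in opened sites, 0 in closed sites and 11 in none. Those in none included the control regions used for JMJD3 and for KLF4. Some amplicons in kept sites, at Tdh and at Sall1, shared a site, so they are not separate loci. The opened ones were 1 enhancer amplicon of Sall1 (chr8:89007195-89007368, rank 28204 of the day 10 list), with no peak in MEFs or ESCs, the start site of Tdh (chr14:63508761-63508947, rank 31872), with an ESC peak, and a start site amplicon of Sall4 (chr2:168765516-168765603, rank 28185), with a MEF peak. All 3 lay in the lowest-scoring 25% of the day 10 list. At Sall1, both start site amplicons lay in a kept site of which only the day 10 peak reached them, with the day 5 peak 338 bp and 175 bp away. At Cdh1, 1 start site amplicon had a day 5 peak 8 bp away and no day 10 peak within 16228 bp, and an ESC peak covered it. The start site amplicon of Ink4a, the Cdkn2a transcript tied to senescence, lay in a kept site that ranked 25222 at day 5 and 18193 at day 10.

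Across chromosomes, the X chromosome stood at the top for closure. Of its day 5 sites, 34.5% closed (31.6% to 37.5%), against 18.6% on chromosome 11 to 30.1% on chromosome 14 among the autosomes, and 19.5% of its day 10 sites opened, the lowest share of the 20 chromosomes with enough sites. The X chromosome had 2.17 closed sites per opened site, chromosome 14 had 1.46 and chromosome 11 had 0.711. The median GC content of sites was 45.5% on X, 45.5% on chromosome 14 and 52.5% on chromosome 11. Leaving out the sex chromosomes changed the opened minus closed difference within 5 kb of a start site from 15.7 to 15.5 points and the AP-1 difference from -5.31 to -5.37 points.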

How the data were processed

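ATAC-seq was done on 4 groups with 2 libraries each, and only the 2 OSKM groups were compared, with the MEF and ESC lists as further readouts. By their protocols, the authors mapped reads to mm10 with bowtie2 (version 2.2.0 in the submitters' processing notes), filtered them on mapping quality, with a limit that differs between labels and methods, and discarded those from mitochondria. The peak caller and any shift of read ends are not given in the sources used here. The authors deposited 1 peak list per group, with a score, a fold enrichment (a ratio) and −log10 p and q values for each peak. The deposited score equalled the −log10 q value multiplied by 10 and truncated. The lowest −log10 q was 1.01 at day 5 and 1.02 at day 10. Lists were named as intersections and carry the peak names of replicate 1, so a site absent from a list may be open in 1 library, and scores may describe a replicate 1 peak wider than the listed part. Counts of reads were not in the lists, so depth was unknown. No column belonged to another series (0 columns).

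Overlaps were computed in Python 3.11.15 with numpy 2.4.6 and pandas 2.3.3. Sites were ranked by −log10 q within their list, and a score percentile of 100 is the top. Start sites, exons and the 21951 protein-coding genes came from GENCODE mouse release 21, and bases and repeat masking from the RefSeq sequence of GRCm38. Matches to 12 motifs were counted on either strand of the central 200 bp of each site and in 200 bp windows 1 kb to each side. Intervals are 95% Wilson intervals for shares and Newcombe intervals for differences (statsmodels 0.14.6), no p-value was computed, and a difference counted as past the threshold where its interval left out 0. The code was checked on simulated peaks. Chromosomes with fewer than 50 sites of either turnover class were left out of chromosome counts.

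The members, the 8 gene lists (186 genes) and the motifs were chosen with earlier results of these data known. Genes were named by rule: the 10 nearest to the most closed and the most opened sites, the members of the lists with the most sites, the 10 highest-scoring closed and opened sites over all and within 1 kb of a start site, the 5 kept sites with the largest rank changes each way, the 4 reprogramming factors and the ChIP-qPCR amplicons. Some genes that this rule names are not reported here. Alternatives were a 50% reciprocal overlap, a 400 bp gap, score and length limits on the lists, no sex chromosomes, no repeats, other windows and other nearest genes.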

Additional observations from a re-analysis of the deposited data

How the results depend on the processing

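Of 90 values recomputed under the alternatives, 77 kept their direction and their side of the threshold or, for counts, stayed within a factor of 1.5. Counts of sites moved when lists were shortened by score. Sites in the higher-scoring 50% of their own list were 1960 closed and 905 opened, and with both lists cut to their higher-scoring 50% there were 5266 closed, 12821 kept and 4788 opened sites. In the cut lists, a site kept in the full lists counted as closed or opened where its peak of the other day was cut. Genes with a closed site numbered 6895 with all annotated genes in place of protein-coding ones. The octamer difference between opened and closed sites, whose interval held 0, turned to -0.903 points in the higher-scoring 50% of the own list, -1.34 points with both lists cut to 50% (past the threshold in the opposite direction), -0.640 points in 400 bp windows and -0.618 points over the whole site, and was past the threshold upwards at 1.78 points at 40% to 50% GC, which was chosen after seeing the data. In the same GC range the KLF difference turned to -2.65 points and the MEF difference was no longer past the threshold, at 1.10 points. With both lists cut to 50%, the differences in the shares near start sites, with a MEF peak and with an ESC peak were larger, at 37.2, 42.1 and 41.9 points. These values include sites that were kept in the full lists. With the classes unchanged, in the higher-scoring 50% of the own list, the differences were 22.9, 29.1 and 31.7 points. No paired analysis was possible because each group had 1 list for both of its libraries, and for the same reason no replicate could be left out.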
